A study of Mus musculus with 18 samples.

Results

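A group of 5 secreted or cell-surface genes that were higher in reprogramming mouse embryonic fibroblasts (MEFs) carrying shRNAs against Cpsf3 or Hnrnpul1 were followed library by library: Col14a1, Comp, Ptn, Ccn3 and Unc5c. They were picked by name on their levels in the knockdown libraries against the day 12 control and against day 0, so those differences describe the choice and carry no test here. The knockdown table listed 5 of these 5 genes among 9435 and the overexpression table listed 2 (Ptn and Ccn3) among 9472. The question was whether a knocked-down culture stood above the starting fibroblasts as well as above the control (an overshoot), or only kept a level that the control had lost (a fall that was not completed).

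Col14a1 encodes collagen XIV, a FACIT collagen (fibril-associated, with interrupted triple helices) that binds the surface of collagen fibrils. Comp encodes cartilage oligomeric matrix protein, a member of the thrombospondin family, which links collagens and proteoglycans in cartilage and tendon. Ptn encodes pleiotrophin, a secreted heparin-binding growth factor, and Ccn3 (older symbol Nov) encodes a secreted matricellular protein of the CCN family. Unc5c encodes a netrin receptor that mediates repulsion of growing axons. Fibroblasts make much of the extracellular matrix, and loss of fibroblast genes is an early step of reprogramming to pluripotency.

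All cells carried the Collagen-OKSM and M2rtta+ alleles, so doxycycline induced Oct4, Sox2, Klf4 and Myc (OSKM) in the day 12 groups. In the knockdown dataset, NI MEFs were not infected and were taken at day 0, and the day 12 groups carried a lentiviral scrambled control shRNA (shSCR), shCPSF3#1, shCPSF3#2, shUL1#1 or shUL1#2. In the overexpression dataset, NI was again day 0, and the day 12 groups carried a retroviral Empty vector or T7-TIA1, a tagged form of the RNA-binding protein TIA1. Each of the 9 groups held 2 libraries (18 in all, 12 in the knockdown and 6 in the overexpression dataset). Cells were sorted for GFP at day 2 and then grown on inactivated feeder MEFs, which the trypsin used at harvest also brought into suspension. The share of feeder RNA in the day 12 libraries was not measured. One label field gave day 0 for shUL1#2 and day 12 for the NI libraries of the overexpression dataset, and the titles were followed instead. The labels do not say whether the libraries of a group came from separate embryos or cultures, so p-values measure only the spread between these libraries.

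The 4 shRNAs are shown because every knockdown value below rests on them. CPSF3 is the endonuclease of the cleavage and polyadenylation machinery, and hnRNP UL1 is a nuclear RNA-binding protein. The 21-base target sites were found in 3 (shCPSF3#1) and 2 (shCPSF3#2) of 11 annotated Cpsf3 transcripts, in 2 of 5 annotated Hnrnpul1 transcripts each, and in 0 of the 19 annotated transcripts of the 5 genes, and each lies in a coding exon (mm10 coordinates, GENCODE M21): shCPSF3#1 at chr12:21302460-21302480 and shCPSF3#2 at chr12:21308936-21308956 on the plus strand of Cpsf3, shUL1#1 at chr7:25733027-25733047 and shUL1#2 at chr7:25733059-25733079 on the minus strand of Hnrnpul1. The sites are written 5′ to 3′ as in the mRNA.
shCPSF3#1: ccagcaaaccagtgaatttat
shCPSF3#2: cctgctctgaaggtgttcaaa
shUL1#1: cccgaaagaagcgaaactata
shUL1#2: tcagtgcctcaaccgtcttat

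The 5 genes lie at 5 places of the mouse genome (mm10): Unc5c (ENSMUSG00000059921) at chr3:141465216-141834924 on the plus strand, Ptn (ENSMUSG00000029838) at chr6:36714929-36810220 on the minus strand, Comp (ENSMUSG00000031849) at chr8:70373558-70382066 on the plus strand, and Ccn3 (ENSMUSG00000037362) at chr15:54745702-54754039 and Col14a1 (ENSMUSG00000022371) at chr15:55307750-55520803, both on the plus strand. The RefSeq promoter windows (GRCm38.p6, 300 bases) of Ptn and Unc5c are printed because no window was matched for Col14a1, Comp and Ccn3. A link between CpG number and expression was not tested. Capitals mark CpG dinucleotides. The Ptn window (chr6:36810130-36810429, minus strand) held 6 CpG and the Unc5c window (chr3:141465314-141465613, plus strand) held 24, against a median of 7 over 32851 windows of the same length. Of all windows, 56.4% held at least 6 and 20.0% held at least 24.
Ptn: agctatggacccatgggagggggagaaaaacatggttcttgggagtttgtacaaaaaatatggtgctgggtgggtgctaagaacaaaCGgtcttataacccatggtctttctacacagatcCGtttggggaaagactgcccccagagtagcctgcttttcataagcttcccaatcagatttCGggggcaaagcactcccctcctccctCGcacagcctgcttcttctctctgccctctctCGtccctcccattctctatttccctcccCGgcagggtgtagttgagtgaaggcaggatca
Unc5c: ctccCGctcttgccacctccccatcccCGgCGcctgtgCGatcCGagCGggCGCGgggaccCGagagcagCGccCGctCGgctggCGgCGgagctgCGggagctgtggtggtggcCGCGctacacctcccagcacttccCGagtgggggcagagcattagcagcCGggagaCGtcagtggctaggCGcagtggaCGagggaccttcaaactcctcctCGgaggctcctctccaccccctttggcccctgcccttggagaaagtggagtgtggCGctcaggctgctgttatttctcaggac

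Expression is given in scaled CPM, the deposited CPM (read counts relative to the size of the library) after the authors' library scaling. These values were not divided by transcript length, so levels are compared between libraries and not between genes. The targets check the labels. Cpsf3 was 86.7 and 118 scaled CPM in shSCR, 38.6 and 49.99 in shCPSF3#1 and 42.4 and 77.1 in shCPSF3#2 (shCPSF3 against shSCR log2 −0.997, SE 0.24, adjusted p 0.0207). The shCPSF3#2 replicate 2 library, at 77.1, lay near the NI libraries (84.7 and 82.2) and above shUL1#1 replicate 1 (74.2). Hnrnpul1 was 156 and 185 in shSCR, 55.7 and 85.8 in shUL1#1 and 38.7 and 63.7 in shUL1#2 (shUL1 against shSCR −1.52, SE 0.23, adjusted p 0.0101). Depth was even, with 57.9 to 65.3 × 1e6 exon junction reads per library. Some libraries stood apart from their replicate. In the overexpression dataset, NI replicate 2 had 8.82, 17.8, 7.64 and 8.27 times the junction RPM (a gene's exon junction reads per 1e6 such reads of the library) that NI replicate 1 had for Col14a1, Comp, Ptn and Ccn3, so the day 0 level of these 4 genes is not defined there. In the knockdown dataset, shSCR replicate 2 had 8.44 times the scaled CPM of Ptn and 4.55 times that of Ccn3 in shSCR replicate 1.

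Marker genes of the other cell types were read from the junction reads, which need no minimum level. The 10 pluripotency markers summed to 0.808 and 1.04 junction RPM in NI and to 1968 and 3475 in shSCR, and lay between 204 and 1906 in the 8 knockdown libraries, so all 8 fell below both shSCR libraries. The fibroblast list (11 of 12 markers listed) summed to 15658 and 18958 scaled CPM in NI and to 7336 and 6675 in shSCR, and to between 13855 and 29397 in the knockdown libraries. Of these 11 markers, 6 rose with shCPSF3 and 5 with shUL1 against shSCR, and none fell in either comparison, when 16.7% and 7.31% of all genes rose and 9.35% and 3.15% fell. In fits chosen after seeing the data, limma called 5 higher with shCPSF3 without shSCR replicate 1, 4 without shSCR replicate 2 and 2 with only the groups compared. With shUL1 it called 0 in each of these fits, where 7, 6 and 7 were higher at an unadjusted p under 0.05. The myofibroblast and smooth muscle list (6 of 6 with introns) summed to 12118 and 10324 junction RPM in NI, 1612 and 935 in shSCR, and 709 to 2010 in the knockdown libraries. Of its 4 markers in the expression table, 0 rose or fell against shSCR with either factor. All 4 were below NI with both, as were 19.9% and 19.4% of all genes. The macrophage list (5 of 6 with introns) summed to 4.90 and 5.39 junction RPM in NI, 127 and 66.5 in shSCR, and 87.1 to 1125 in the knockdown libraries. How far these cell mixtures account for the 5 genes was not tested, and in bulk RNA fewer cells of a type and less RNA per cell cannot be told apart.

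Col14a1 lay far above both controls in every knockdown library. It was 5.92 and 6.96 scaled CPM in NI and 1.67 and 5.33 in shSCR. It reached 38.4 and 97.6 in shCPSF3#1, 41.8 and 58.7 in shCPSF3#2, 70.0 and 59.8 in shUL1#1 and 53.9 and 55.7 in shUL1#2. The lowest knockdown library was 5.51 times the highest NI library and 7.20 times the highest shSCR library. On the log2(value + 1) scale shCPSF3 stood 3.77 (SE 0.42) above shSCR and 2.92 (SE 0.42) above NI, and shUL1 stood 3.88 (SE 0.42) and 3.03 (SE 0.42) above them. Against shSCR these values were 3.15 and 3.26 without shSCR replicate 1, and 4.39 and 4.50 without shSCR replicate 2.

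Comp was almost absent in the day 0 libraries of the knockdown dataset and was the only one of the 5 whose shSCR libraries both lay above both NI libraries there. It was 1.11 and 1.501 scaled CPM in NI and 4.79 and 5.32 in shSCR, a log2 difference of 1.40 (SE 0.42). In the knockdown libraries it was 26.1 and 68.0 in shCPSF3#1, 72.8 and 59.4 in shCPSF3#2, 76.9 and 45.6 in shUL1#1 and 15.2 and 20.8 in shUL1#2. All 8 lay above all 4 controls, and the lowest was 10.2 times the highest NI library and 2.87 times the highest shSCR library. The table kept genes at 5 or more in at least 9 of 12 libraries, which Comp met through the 8 knockdown libraries and 1 shSCR library, so its presence there already required a high level in the knockdown cells.

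Ptn and Ccn3 were expressed at day 0, and their 2 shSCR libraries fell on either side of the NI libraries. Ptn was 152 and 244 scaled CPM in NI and 31.2 and 263 in shSCR. It was 324 and 1557 in shCPSF3#1, 670 and 1211 in shCPSF3#2, 816 and 1184 in shUL1#1 and 874 and 977 in shUL1#2. The groups did not overlap, with the lowest knockdown library at 1.32 times the highest NI library and 1.23 times the highest shSCR library. The labels do not say what a replicate number shares. By number, Ptn was 324 to 874 in the knockdown groups against 31.2 in shSCR (replicate 1), and 977 to 1557 against 263 (replicate 2). Its log2 difference from shSCR was 3.12 (SE 0.86) for shCPSF3 and 3.37 (SE 0.86) for shUL1, and these values were 1.60 and 1.85 without shSCR replicate 1 and 4.64 and 4.89 without shSCR replicate 2.

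Ccn3 was 20.6 and 25.4 scaled CPM in NI and 10.6 and 48.1 in shSCR, so its mean log2 level did not separate the control groups (shSCR against NI −0.0016, SE 0.66). It was 142 and 301 in shCPSF3#1, 120 and 245 in shCPSF3#2, 252 and 369 in shUL1#1 and 189 and 190 in shUL1#2. The lowest of these libraries was 4.75 times the highest NI library and 2.50 times the highest shSCR library. The log2 difference from shSCR was 2.99 (SE 0.57) for shCPSF3 and 3.34 (SE 0.57) for shUL1, and was 1.95 and 2.30 without shSCR replicate 1 and 4.03 and 4.38 without shSCR replicate 2.

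Unc5c took the other course. It was 51.1 and 47.0 scaled CPM in NI and 1.05 and 2.69 in shSCR, 3.82% of the day 0 mean. It was 10.2 and 57.1 in shCPSF3#1, 17.6 and 26.9 in shCPSF3#2, 13.3 and 21.7 in shUL1#1 and 8.90 and 18.4 in shUL1#2. All 8 knockdown libraries lay above both shSCR libraries, and 7 of them lay below both NI libraries. The exception, shCPSF3#1 replicate 2, also had the highest Col14a1 and Ptn of the 12 libraries, and its chondrocyte markers summed to 598 junction RPM, against 37.7 to 87.7 in the other 7 knockdown libraries and 242 and 251 in NI. Their part in the Unc5c value was not tested. The median knockdown library held 36.7% of the NI mean, and on the log2(value + 1) scale 66.6% of the fall seen in shSCR had not been made, with a range of 44.2% to 105% over the 8 libraries.

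**Figure D1:**
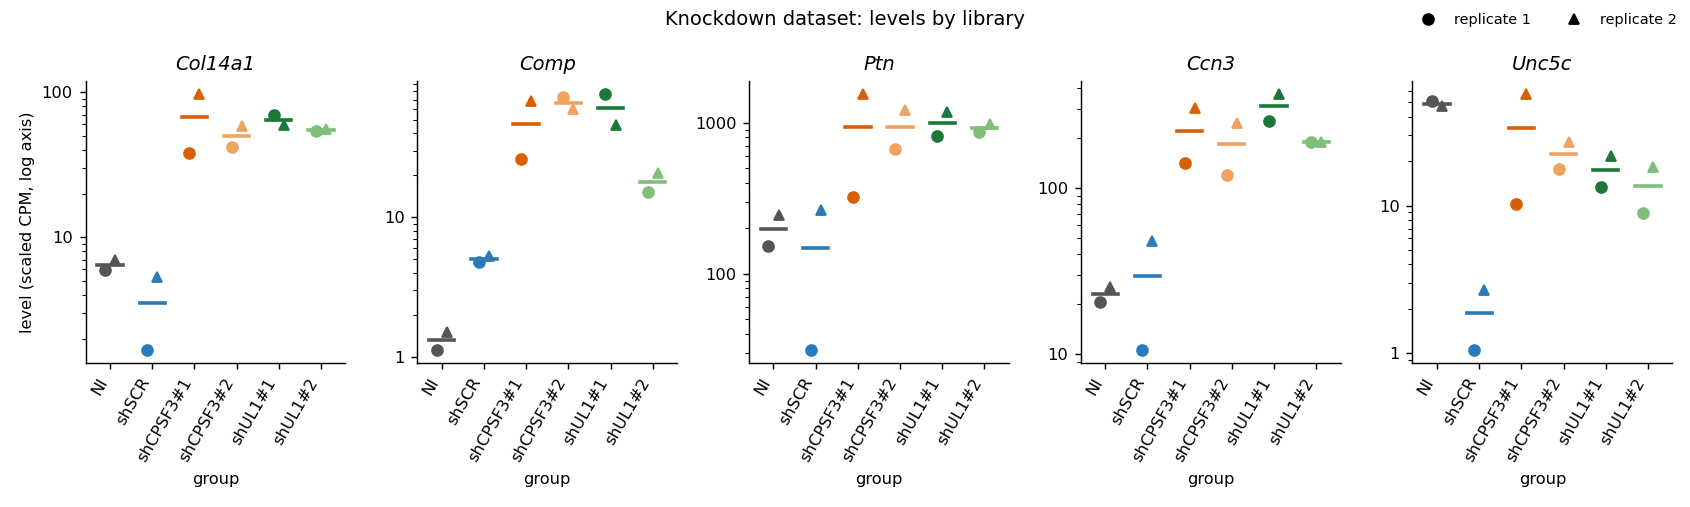
Level of each gene in the 12 knockdown libraries in scaled CPM on a log axis, by group, with circles for replicate 1, triangles for replicate 2 and a bar at the mean of the 2. For Col14a1, Comp, Ptn and Ccn3 all 8 knockdown libraries sit above all 4 NI and shSCR libraries, and for Unc5c 7 of the 8 sit between shSCR and NI.

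Thus 4 of the 5 genes had all 8 knockdown libraries above all 4 control libraries. This held for 607 of all 9435 genes (6.43%), and nothing is read from the members' count, since the rule used these libraries. The opposite order, with all 8 libraries above shSCR and below NI, was met by 434 genes (4.60%) and by none of the 5, because of the 1 Unc5c library. The count was also 4 with library sums made equal and when levels were taken from junction reads. It depends on which day 0 culture is the reference. Set beside the NI libraries of the overexpression dataset, in junction RPM, all 8 knockdown libraries lay above NI replicate 1 for these 4 genes. Above NI replicate 2 lay 8 of 8 for Col14a1 (52.1 to 150 against 28.7), 7 of 8 for Ccn3 (68.0 to 221 against 72.9), 6 of 8 for Comp (24.5 to 126 against 39.4) and 3 of 8 for Ptn (244 to 1326 against 1011). These values cross datasets and were not tested.

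**Figure D2:**
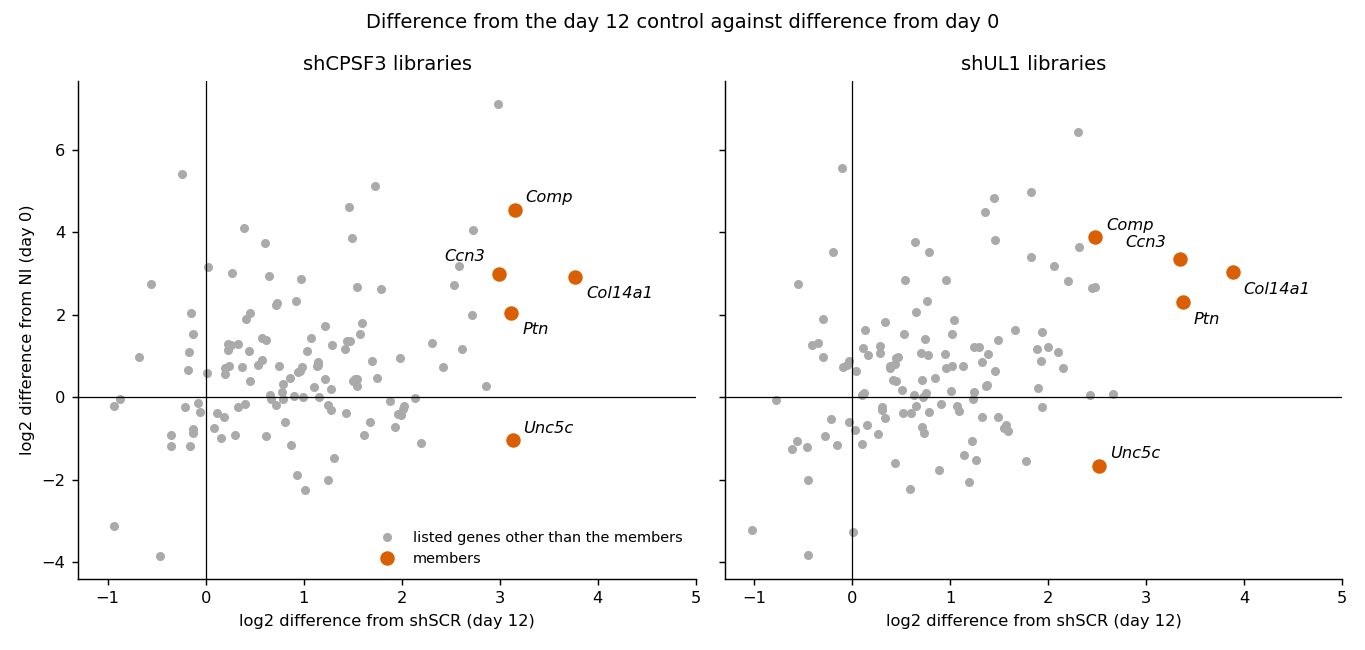
Log2 difference of the shCPSF3 libraries (left) and shUL1 libraries (right) from shSCR at day 12 (horizontal axis) and from NI at day 0 (vertical axis) for the 5 genes (orange) and the 122 listed genes (grey), 1 point a gene. Col14a1, Comp, Ptn and Ccn3 lie right of and above both zero lines, and Unc5c lies below the horizontal one at −1.05 with shCPSF3 and −1.66 with shUL1. Both axes share the knockdown libraries.

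Whether the factors or their shRNAs differed was not part of the rule and could be tested. None of the 5 genes passed between shCPSF3 and shUL1 after adjustment over all genes (4 of 9435 genes did, 0.0424%, and 1207 had an unadjusted p under 0.05). The differences were −0.11 (SE 0.34) for Col14a1, 0.67 (SE 0.30, adjusted p 0.398) for Comp, −0.25 (SE 0.70) for Ptn, −0.35 (SE 0.47) for Ccn3 and 0.61 (SE 0.51, adjusted p 0.669) for Unc5c. None of the 5 passed between the shRNAs against Cpsf3 (2 of all genes did, 0.0212%, with 1094 at an unadjusted p under 0.05), the widest gap being −0.63 (SE 0.42, adjusted p 0.445) for Comp. The SEs reached 1.00 (Ptn) with 2 libraries per shRNA, so a difference may have gone undetected. For the shRNAs against Hnrnpul1, Comp was 1.68 higher (SE 0.42) with shUL1#1 than with shUL1#2. This passed at an unadjusted p of 0.00382 and failed the adjustment (adjusted p 0.572, limma), in a comparison where limma called 0 genes (0%) and 477 had an unadjusted p under 0.05. The differences of Ccn3 and Col14a1 between these shRNAs were 0.68 (SE 0.66) and 0.24 (SE 0.48), with adjusted p 0.9999 for each.

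The families of the 5 genes were followed through 10 lists with 189 other genes, of which 122 were measured in the knockdown table. The lists were set with earlier results of these data known. Against shSCR, 55 rose and 2 fell with shCPSF3, when 16.7% and 9.35% of all genes did. With shUL1, 42 rose and 1 fell, when 7.31% and 3.15% of all genes did. The median log2 difference of the 122 was 0.89 with shCPSF3 and 0.74 with shUL1, against 0.03 and 0.00 over all genes. Without shSCR replicate 2 the calls were 26 with shCPSF3 and 9 with shUL1, and without shSCR replicate 1 the shUL1 count was 14. With only the groups compared in the fit, the calls were 21 with shCPSF3 and 12 with shUL1, in place of 57 and 43. Of the 29 genes named from the lists that rose with shCPSF3, 7 lost the call without shSCR replicate 1, 12 without shSCR replicate 2 and 15 with only the groups compared. The 12 that passed in each of these fits were Col1a1, Col3a1, Col5a2, Col5a3, Epha3, Epha7, Flrt2, Nrp1, Plxna3, Robo2, Sdc3 and Dpt, which the table lists only because it was high in the knockdown libraries. With shUL1 13, 18 and 18 of 24 lost the call, and Epha3, Flrt2, Nrp1, Plxna3 and Robo2 passed in each. Robo2 was under 5 in both shSCR libraries (3.07 and 4.07), so the filter of the table required most of its knockdown libraries to be at 5 or more. From day 0 to shSCR, 20 of the 122 rose and 40 fell (22.5% and 22.0% of all genes). With the library sums made equal, 25 of the 122 rose and 33 fell. In the knockdown cells 50 were above and 12 below NI with shCPSF3 (25.7% and 19.9% of all genes), and 49 and 19 with shUL1 (23.5% and 19.4%). Making the library sums equal moved the median of all genes by 0.13 for shSCR against NI and by 0.10 for shUL1 against NI, and the calls over all genes then stood at 2447 up and 1540 down in place of 2122 and 2075, and at 2531 and 1255 in place of 2215 and 1830. All 8 knockdown libraries lay above all 4 controls for 22 of the 122 (18.0%) and between them for 7 (5.74%), beside the 6.43% and 4.60% of all genes.

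**Figure D3:**
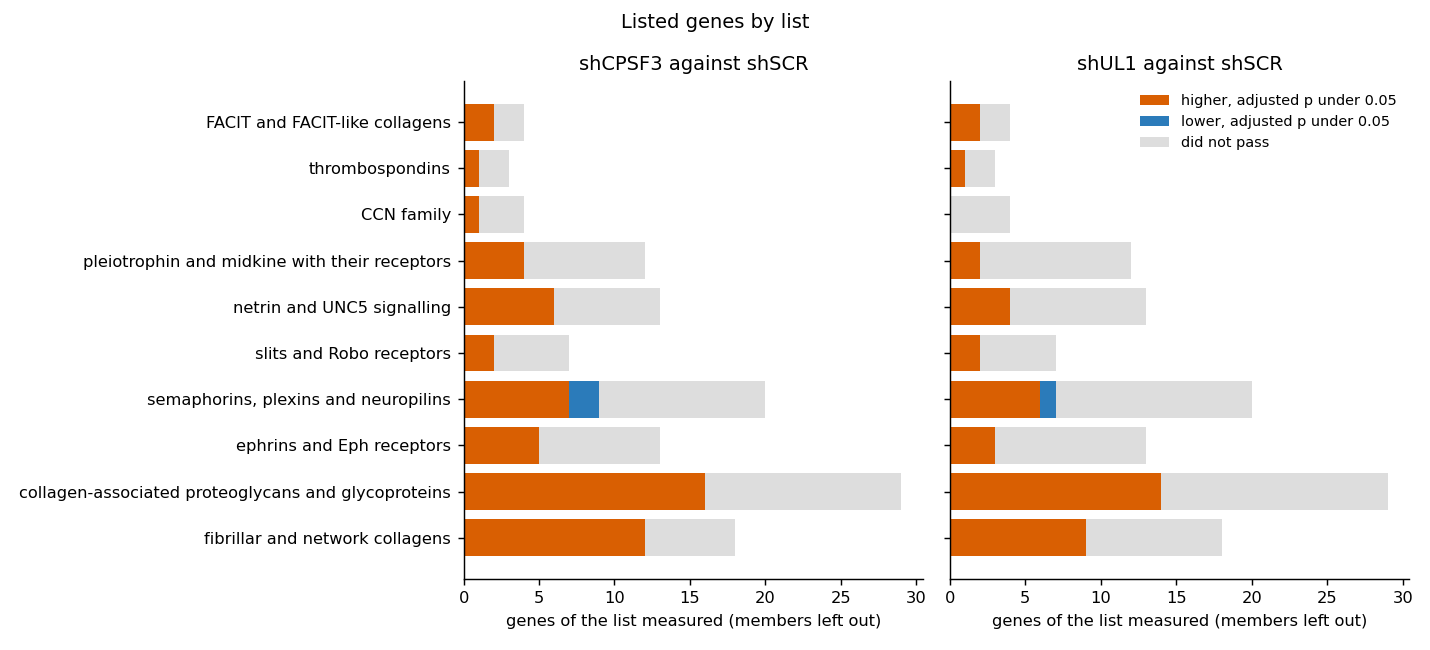
Number of measured genes in each list, without the 5 genes themselves, that rose (orange), fell (blue) or did not pass (grey) at an adjusted p under 0.05 with shCPSF3 (left) and shUL1 (right) against shSCR. In the proteoglycan and glycoprotein list 16 and 14 of 29 genes rose, in the fibrillar and network collagen list 12 and 9 of 18, and the semaphorin list is the one with genes that fell.

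Among the closest relatives of Col14a1, 2 of 4 measured FACIT and FACIT-like collagens rose with both factors. Col16a1 was 197 ± 4.14 scaled CPM (SD, n = 2) in NI, 100 ± 60.3 (n = 2) in shSCR, 271 ± 52.8 (n = 4) with shCPSF3 and 240 ± 53.7 (n = 4) with shUL1. Its log2 differences from shSCR were 1.54 (adjusted p 0.0133) and 1.37 (adjusted p 0.0372), and without shSCR replicate 2 they were 0.89 (adjusted p 0.0679) and 0.72 (adjusted p 0.168). Col27a1 rose by 1.98 (adjusted p 0.00694) and 1.92 (adjusted p 0.0157). Both had all 8 knockdown libraries above the 4 controls, but neither stood apart from NI in the test (adjusted p 0.299 and 0.0533 with shCPSF3).

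The collagens that form fibrils and networks rose for 12 of 18 genes with shCPSF3 and 9 of 18 with shUL1, after 11 of them had fallen and 1 had risen from NI to shSCR. They differed in where they ended. Col3a1 was 1034 ± 390 in NI, 1136 ± 163 in shSCR, 6728 ± 1815 with shCPSF3 and 7093 ± 4187 with shUL1, and it was above NI in both (2.72 and 2.66, adjusted p 0.00133 and 0.00148). Col1a1, a chain of the main fibrillar collagen, was 5776 ± 875 in NI, 1164 ± 91.2 in shSCR and 4807 ± 1290.3 with shCPSF3. It rose by 2.01 (adjusted p 0.00322) against shSCR and was −0.30 from NI (adjusted p 0.396). With shUL1 it was 3524 ± 1129.7, −0.75 from NI (adjusted p 0.0551). Col5a2 rose by 1.99 and 1.59, and Col5a3 by 2.42 and 1.90, against shSCR (the largest adjusted p was 0.00863), and Col5a2 was below NI with shUL1 (−0.83, adjusted p 0.0198).

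Of the proteoglycans and glycoproteins associated with collagen, 16 of 29 rose with shCPSF3 and 14 with shUL1, and none fell. Lum, the keratan sulphate proteoglycan lumican, was 4.51 ± 0.938 in NI, 111 ± 79.7 in shSCR, 793 ± 240 with shCPSF3 and 502 ± 213 with shUL1, the same order of group means as for Comp. Dpt (dermatopontin) was 1.85 ± 0.305, 6.42 ± 2.93, 48.4 ± 18.5 and 36.8 ± 13.8 in the same groups, and it met the filter of the table through the same kind of libraries as Comp, the 8 knockdown libraries and 1 shSCR library, so it had to be high in the knockdown cells to be tested. Postn (periostin) had fallen by 2.59 from NI to shSCR (adjusted p 0.0111) and rose by 2.86 and 2.66 against shSCR, to within 0.27 of NI with shCPSF3 (SE 0.54, adjusted p 0.702). Vcan (versican) rose by 2.61 and 2.15 against shSCR. Of the thrombospondins other than Comp, 1 of 3 rose with each factor. It was Thbs3, 29.0 ± 3.36 in NI, 27.3 ± 2.03 in shSCR, 76.8 ± 15.8 with shCPSF3 and 70.1 ± 20.5 with shUL1, with adjusted p of 0.00587 and 0.0168 against shSCR.

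Of the 4 measured CCN genes other than Ccn3, Ccn4 alone passed against shSCR, with shCPSF3 (1.31, adjusted p 0.0370), and the value with shUL1 was 1.26 (adjusted p 0.0675). Ccn4 went from 299 ± 17.6 in NI to 42.4 ± 1.51 in shSCR and was 111 ± 34.9 with shCPSF3, still below NI by a tested difference of −1.48 (adjusted p 0.0136), unlike the order seen for Ccn3. Ccn5 did not pass against shSCR (1.79 with shCPSF3 and 1.03 with shUL1), and its values lay 2.61 and 1.86 above NI. Ccn1 and Ccn2 lay below NI with both factors. Among the receptors and partners of pleiotrophin and midkine, 4 of 12 rose with shCPSF3 and 2 with shUL1. The syndecans, heparan sulphate proteoglycans that bind pleiotrophin, gave 3 of these. Sdc3 rose by 1.93 (SE 0.13) with shCPSF3 and 0.88 (SE 0.13) with shUL1, and Sdc1 and Sdc2 rose by 1.15 and 0.96 with shCPSF3. Nrp1, a receptor shared with the semaphorins, was 390 ± 31.9 in NI, 38.4 ± 3.47 in shSCR, 191 ± 82.8 with shCPSF3 and 140 ± 51.4 with shUL1, and it stayed below NI in both (adjusted p 0.00335 and 0.000725).

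In the netrin and UNC5 list 6 of 13 rose with shCPSF3 and 4 with shUL1. Flrt2, a ligand of UNC5 receptors, was 270 ± 28.0 in NI, 56.5 ± 4.73 in shSCR, 240 ± 67.5 with shCPSF3 and 171 ± 27.8 with shUL1, and rose by 2.03 and 1.57 against shSCR (adjusted p 0.000677 and 0.00464). Dapk1, a kinase that acts downstream of UNC5 receptors, was 20.1 ± 2.60 in NI, 61.1 ± 2.15 in shSCR, 103 ± 17.6 with shCPSF3 and 106 ± 19.1 with shUL1. Trio rose by 0.78 and 0.75 against shSCR, and Rgmb, a ligand of neogenin, by 0.75 with shCPSF3. Of the slits and Robo receptors 2 of 7 rose with each factor: the receptor gene Robo2 (3.57 ± 0.707 in shSCR, 32.3 ± 18.0 with shCPSF3, 16.0 ± 3.70 with shUL1) and its ligand gene Slit2 (1.13 with each factor). Of the semaphorins, plexins and neuropilins 7 of 20 rose with shCPSF3 and 6 with shUL1, among them Sema3c (2.31 and 2.10), Plxna2 (1.29 and 1.24) and Plxna3 (1.104 and 1.01), while 2 and 1 fell. Of the ephrins and Eph receptors 5 of 13 and 3 of 13 rose, with Epha3 at 2.13 and 1.93, Epha7 at 1.22 and 1.02, Efna5 at 0.98 and 1.02, and Efnb2 at 0.87 with shCPSF3.

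The genes whose levels ran most like each of the 5 over the 12 libraries were found by Pearson r on log2(value + 1). These 12 points share 6 conditions and are a description. For Col14a1 they were Mfap2, Marcks and Fam32a (r 0.958, 0.956 and 0.955), for Comp Cbx6, Dync2h1 and Smpd2 (0.967, 0.966 and 0.966), for Ptn Adgrl2, Olfml3 and Wdr6 (0.967, 0.958 and 0.955), and for Ccn3 Fam32a, Tmem67 and Mfap2 (0.950, 0.949 and 0.946). Each of these had all 8 knockdown libraries above the controls. Mfap2, a microfibril protein, averaged 21.0 in NI and 20.5 in shSCR and ranged from 37.6 to 80.2 in the knockdown libraries. For Unc5c they were Pdgfc, Pcdh9 and Wnt5a (0.964, 0.963 and 0.963), and none of these 3 had all 8 knockdown libraries above the controls. Pdgfc averaged 70.1 in NI and 24.5 in shSCR and ranged from 36.0 to 102 in the knockdown libraries. Wnt5a, a secreted Wnt ligand, averaged 186 in NI and 53.2 in shSCR and ranged from 107 to 160 in the knockdown libraries. Among the 5 themselves r was highest for Col14a1 with Ccn3 (0.970), and lowest for Comp with Unc5c (0.126).

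The 5 genes were picked on the knockdown libraries and not on the overexpression dataset. Col14a1, Comp and Unc5c are not listed in its expression table, which kept genes at 5 or more in all 6 libraries, so the level of each gene was also taken in junction RPM, a measure chosen after the data had been seen. Unc5c went down without TIA1 as well. It was 22.5 and 24.6 junction RPM in NI, 1.16 and 1.73 in Empty, and 1.66 and 1.71 in T7-TIA1. The log2 difference was −3.96 (SE 0.24, adjusted p 0.000166) for Empty against NI and −3.73 (SE 0.24, adjusted p 0.000206) for T7-TIA1 against NI, comparisons in which 52.7% and 52.2% of genes were called and 15.9% were called lower in each. With NI replicate 1 or replicate 2 left out, Unc5c was −4.02 or −3.90 for Empty against NI and −3.79 or −3.66 for T7-TIA1 against NI. These fits leave 1 NI library, so only the sizes are given. T7-TIA1 against Empty gave 0.23 (SE 0.24, adjusted p 0.993).

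**Figure D4:**
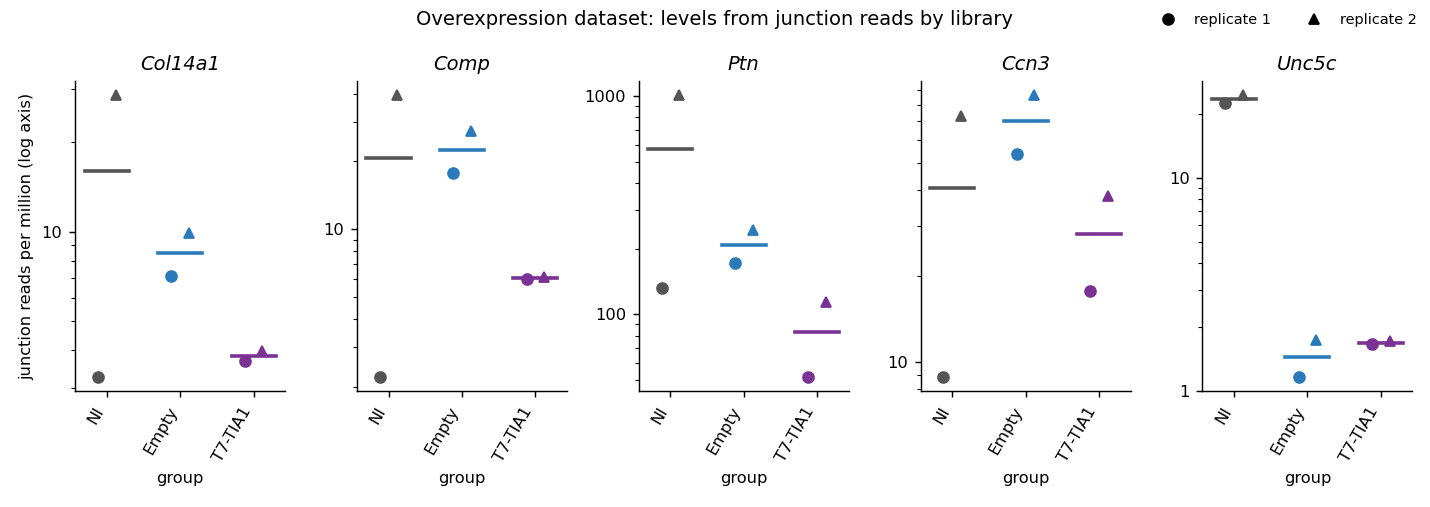
Junction RPM of each gene in the 6 overexpression libraries on a log axis, by group, with circles for replicate 1, triangles for replicate 2 and a bar at the mean. The NI libraries lie far apart for all but Unc5c, the T7-TIA1 libraries lie below the Empty libraries for 4 genes, and Unc5c is low in both day 12 groups.

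For the other 4 genes the NI libraries lay far apart. Col14a1 was 3.25 and 28.7 junction RPM in NI, 7.10 and 9.89 in Empty and 3.68 and 3.98 in T7-TIA1. Comp was 2.21 and 39.4, 17.7 and 27.2, and 6.05 and 6.14. In the expression table Ptn was 179 and 1382 scaled CPM in NI, 214 and 294 in Empty and 61.2 and 140 in T7-TIA1, and Ccn3 was 16.4 and 144, 94.5 and 145, and 32.5 and 66.5. Neither of these genes passed for Empty against NI (Ptn −0.98, SE 0.96, adjusted p 0.432, and Ccn3 1.24, SE 0.98, adjusted p 0.338), where 22.8% of genes rose and 23.6% fell, nor for T7-TIA1 against NI (Ptn −2.41, adjusted p 0.0900, and Ccn3 −0.08, adjusted p 0.956), where 44.8% were called. For Empty against NI the direction of Col14a1, Comp, Ptn and Ccn3 changed with the NI library left out. Such fits leave 1 NI library and hold no spread of day 0, so only the sizes are given. By junction reads Col14a1 was −1.76 without NI replicate 1 and 1.34 without NI replicate 2. Without NI replicate 2, Ccn3 was 2.77 higher in Empty than in NI and Comp 3.26 higher by junction reads. Without NI replicate 1, Ptn was −2.46 from NI and Comp −0.84 by junction reads. Ptn in T7-TIA1 was below NI with either NI library left out, by −3.88 without replicate 1 and −0.94 without replicate 2. Ccn3 in T7-TIA1 was −1.60 from NI without replicate 1 and 1.45 without replicate 2.

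For T7-TIA1 against Empty, both T7-TIA1 libraries lay below both Empty libraries for 4 of the 5 genes by junction reads, all but Unc5c, as they did for 27.9% of all genes. Empty was 2.22 times T7-TIA1 for Col14a1, 3.68 times for Comp, 2.51 times for Ptn and 2.50 times for Ccn3. None of these differences passed the test (Comp −1.83, SE 1.25, the widest, and adjusted p 0.993 for each of the 5). The SEs come from a fit that holds the NI libraries. With only Empty and T7-TIA1 fitted on scaled CPM, Ptn was −1.43 (SE 0.37, adjusted p 0.194) and Ccn3 −1.31 (SE 0.35, adjusted p 0.195). With all groups fitted, limma called 0 of 9472 genes (0%, with 393 at an unadjusted p under 0.05) in the expression table and 1 of 12924 (0.00774%, with 628) by junction reads.

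Splicing of the 5 genes was read as percent spliced in (PSI), the share of reads that include an exon or intron. Of 216 annotated events in the 5 genes, 30 were covered in all 12 knockdown libraries, in Comp (7), Ptn (11) and Ccn3 (12). Nearly all were constant, and PSI differed between libraries by at most 6.03 points in Comp, 0.20 in Ptn and 1.53 in Ccn3. The test on the ratio of inclusion to exclusion reads called 5 of the 30 events for shCPSF3 against shSCR (0.612% of 374159 events over all genes). These were 3 exons of Comp (chr8:70378898-70378950, chr8:70379034-70379215 and chr8:70380105-70380301), an intron of Comp (chr8:70378733-70378897) and an intron of Ccn3 (chr15:54749365-54752208). The exons had PSI between 99.6 and 100 and the introns between 0 and 0.28 in all 12 libraries. With 1 read added to each side, a ratio over an empty side grows with the number of reads, which ran from 18 to 1231 for the first of these exons, and the test on PSI itself called 0 of the 30. No change of inclusion was detectable in these events. In Ptn the event with the most reads, an exon at chr6:36741278-36741439, had PSI between 99.9 and 100 in the 12 libraries, and for Ccn3 it was the exon at chr15:54749150-54749364, with the same bounds.

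No event of Col14a1 or Unc5c was covered in all 12 libraries. A 57-base coding exon of Unc5c, singled out after its values were seen, had intermediate inclusion in the NI and knockdown libraries (chr3:141786857-141786913, plus strand, in 3 of 8 annotated transcripts). It is printed, in lower case and read from an annotated transcript, because its inclusion varied among libraries.
Unc5c exon: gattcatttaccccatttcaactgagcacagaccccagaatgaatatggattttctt
Its PSI was 82.7 and 75.3 in NI from 95 and 85 reads, and 83.6 and 74.8 in NI of the overexpression dataset from 134 and 125. It was 66.7 and 60.2 in shCPSF3#1 (25 and 149 reads), 90.2 and 85.5 in shCPSF3#2 (39 and 51 reads), 65.2 and 62.5 in shUL1#1 (19 and 39 reads) and 57.9 and 69.6 in shUL1#2 (15 and 39 reads). The shSCR libraries had 1 and 9 reads, so the control inclusion was not measurable and no test was made. In the overexpression dataset PSI was 100 and 71.4 in Empty (12 and 6 reads) and 71.4 and 42.9 in T7-TIA1 (18 and 5 reads). The shRNAs against Cpsf3 lay on opposite sides of the NI libraries.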

How the data were processed

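Stranded RNA libraries (18) were sequenced, and the authors deposited gene expression as a signal in scaled CPM (per the labels, STAR 2.7.1a, edgeR 3.16.5 and mm10). Tested on the files, the knockdown table kept genes at 5 or more in at least 9 of 12 libraries and the overexpression table those at 5 or more in all 6. The authors also deposited a vast-tools splicing table with inclusion in percent (PSI) and read support. Per-sample columns not used numbered 0. Groups followed the sample titles.

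Values were taken as log2(value + 1) and fitted with limma 3.58.1 (trend option, R 4.3.3), all groups of a table together and without a replicate block, two-sided, with Benjamini-Hochberg adjustment over all genes and a threshold of 0.05. A factor was the mean of its 2 shRNAs, and SEs came from the spread within groups, so they do not hold the spread between shRNAs of a factor. Junction level was the sum of a gene's exon-exon junction reads per 1e6 such reads (RPM), with 0.1 added and a mean of at least 0.5. It was chosen after seeing the data. Events were fitted on the log2 ratio of inclusion to exclusion reads with 1 read added to each. The fits were tested on simulated data. Tables were handled in Python 3.11.15 with pandas 2.3.3 and NumPy 2.4.6, and plots drawn with matplotlib 3.10.9.

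The genes and lists were chosen with earlier results of these data known. Named from each list were at most 4 called genes with the widest difference of either knockdown from shSCR, and for each of the 5 genes the 3 with the highest Pearson r. Genes named outside this rule were chosen after their values were seen. Alternatives were another added constant (0.1 or 5), a mean of at least 10, equal library sums, fits of only the groups compared, a replicate block and leaving out each library.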

Additional observations from a re-analysis of the deposited data

Results flagged for a closer look

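Sdc3, the syndecan that binds pleiotrophin, was the only one of the 5 genes and the 122 listed genes that passed the test between the knockdowns. It was higher with shCPSF3 than with shUL1 by 1.05 on the log2 scale (SE 0.11, adjusted p 0.0344, limma), with 136 ± 63.2 scaled CPM (SD, n = 4) against 63.2 ± 23.7 (SD, n = 4). The libraries overlapped, from 77.7 to 202 with shCPSF3 and from 42.6 to 89.0 with shUL1. The SE came from the spread between libraries of the same shRNA, so the p-value does not measure the spread between shRNAs of a factor. With the library sums made equal, 0 of the listed genes passed this comparison.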

How the results depend on the processing

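Of the counts of calls recomputed under an alternative, 179 stayed within 1.5 times and 34 moved further. Of the tested values 835 kept direction and side of the threshold, 118 lost the threshold, 20 gained it and 28 turned direction. Of the differences given without a test, 259 moved by less than the spread between replicates and 31 by more. The cause was not tested in any of these. When only the groups compared were fitted (fewer libraries), the listed genes called were 21 for shCPSF3 against shSCR in place of 57, 12 for shUL1 against shSCR in place of 43 and 1 for T7-TIA1 against Empty in place of 0. Splicing events called for shCPSF3 against shSCR were 1 with a score of at least LOW and 0 on PSI in percent. With equal library sums Ccn3 in T7-TIA1 against NI was 0.10 in place of −0.08. That scaling moved the median of all genes by 0.18 for Empty against NI and 0.17 for T7-TIA1 against NI, and the share of calls that were higher from 49.2% to 66.9% and from 49.9% to 67.1%. The planned edgeR and DESeq2 tests on recovered reads were not run.

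Leaving out 1 library at a time, the listed genes called ranged from 34 to 47 for shSCR against NI (60 with all libraries), 26 to 60 for shCPSF3 against shSCR, 9 to 39 for shUL1 against shSCR, 37 to 67 for shCPSF3 against NI, 40 to 64 for shUL1 against NI and 30 to 81 for Empty against NI. The fewest came without NI replicate 1 in the comparisons of the knockdown dataset with NI, without shSCR replicate 2 in those with shSCR, and without Empty replicate 1. With shUL1 against shSCR 21 were called without shUL1#1 replicate 1 and 18 without shUL1#2 replicate 1, and for shSCR against NI 36 without NI replicate 2, and for Empty against NI 37 without Empty replicate 2. Each of these fits leaves 1 library in a group, whose spread then comes from the other groups, so the counts describe only how the calls move. Events called for shCPSF3 against shSCR ranged from 0 to 2.

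Values that turned direction ranged, on scaled CPM, from −2.46 to 0.49 (Ptn) and −0.29 to 2.77 (Ccn3) for Empty against NI, −1.60 to 1.45 (Ccn3) for T7-TIA1 against NI, −0.44 to 0.22 (Col14a1) and −0.82 to 0.31 (Ptn) for shCPSF3 against shUL1, −0.36 to 0.96 (Col14a1), −1.299 to 0.047 (Comp), −1.47 to 0.79 (Ptn), −0.27 to 0.81 (Ccn3) and −1.03 to 1.35 (Unc5c) for shCPSF3#1 against shCPSF3#2, and −0.18 to 0.36 (Ptn) and −0.11 to 0.86 (Unc5c) for shUL1#1 against shUL1#2. By junction reads they ranged from −1.76 to 1.34 (Col14a1), −0.84 to 3.26 (Comp), −2.30 to 0.63 (Ptn) and −0.10 to 2.94 (Ccn3) for Empty against NI, −0.036 to 0.50 (Unc5c) for T7-TIA1 against Empty, and −2.87 to 0.23 (Col14a1), −2.67 to 1.42 (Comp) and −1.48 to 1.56 (Ccn3) for T7-TIA1 against NI.

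With the replicate block, 69 listed genes were called for shUL1 against shSCR in place of 43, 1 of the 5 genes for T7-TIA1 against NI (Ptn, adjusted p 0.0252, and 2 of them by junction reads), and 3 events for shCPSF3 against shSCR. Over all genes the calls went from 2458 to 4698 for shCPSF3 against shSCR, from 987 to 2768 for shUL1 against shSCR, from 4 to 70 for shCPSF3 against shUL1 and from 2 to 407 for shCPSF3#1 against shCPSF3#2. The groups share only replicate numbers, with 2 libraries each. Same-numbered deviations correlated across genes at 0.674 to 0.949 among the day 12 groups of the knockdown dataset, −0.127 to 0.0218 between these and NI, and 0.171 to 0.308 in the overexpression dataset.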
